A study of Mus musculus with 11 samples.

Results

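The 11 libraries of this mouse nucleus accumbens shell series were divided by the number in the library code, with codes 1, 2, 3, 5, 6 and 7 (6 of 11 samples, the low codes) set against codes 9, 10, 12, 13 and 14 (5 of 11 samples, the high codes). The division was chosen by measured levels: it was proposed because striatal genes differed between the ranges, so every difference between them is given as a description, without a test. All 11 samples were shell punches from 300 µm frozen brain sections of 8 week old mice on a CBA/C57BL6J/129svEmx mixed background, and each code belongs to a mouse of its own number. The study concerned lowered signalling by the retinoic acid receptor RARβ in mice with a mutation that causes Huntington disease, and its design text names 12 samples, of which 1, the sample numbered 10, failed quality control. That sample came from a male without the R6/1 transgene (R6/1 0/0) and with both Rarb alleles intact (Rarβ+/+). The library with code 10 came from another animal. R6/1 is a transgenic line that expresses the first exon of human huntingtin with an expanded CAG repeat. The labels give no genotype, transgene or Rarb allele for any of the 11 libraries, nor what the codes stand for. The ranges are therefore named by code alone, and genotype, handling and the order of processing cannot be told apart.

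The striatum, of which the accumbens is the ventral part, consists mostly of GABAergic projection neurons of 2 kinds. Direct-pathway neurons carry the D1 dopamine receptor and make dynorphin and substance P, and indirect-pathway neurons carry the D2 dopamine receptor and an adenosine receptor encoded by Adora2a and make enkephalin. Both kinds translate dopamine, adenosine and glutamate input through cyclic AMP, protein kinase A and calcium, and loss of the transcripts of this machinery is a known feature of Huntington disease and of its mouse models. Retinoic acid acts through nuclear receptors of the RAR and RXR families, of which RARβ and RXRγ are prominent in striatum.

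Ppp1r1b, which marks striatal projection neurons, was present in every library (at least 438 CPM, counts relative to the scaled library size). Counted reads ran from 24840981 (code 12) to 48825783 (code 2), and mitochondrial transcripts took 2.90% (code 5) to 7.21% (code 12) of counts. The first principal component of the 500 most variable genes held 46.9% of their variance and did not follow the division (scores of -11.9 to 17.1 in the low codes and -23.3 to 19.9 in the high codes). Codes 9 and 13 each correlated best with code 6, a library of the other range. Y-linked Ddx3y was found in all 11 libraries at 21.4 to 72.3 CPM. Codes 1 and 3 were each other's closest match and held more motile cilia transcripts of ependyma, the lining of the ventricles, than the rest (195 and 168 CPM summed over 34 genes, against 70.3 to 118 CPM in the other 9 libraries).

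Of 52550 genes in the table, 15388 reached 1 CPM in 3 libraries. A gene was called lower or higher in the low codes where the ranges did not overlap and the medians of log2(CPM + 0.5) differed by at least 1.5-fold, and folds are on that scale throughout. There were 147 genes lower in the low codes, 0.955% of those examined, and 21 higher, 0.136%. Calls were thus 87.5% in the lower direction, and 75.9% (104 lower, 33 higher) where CPM was taken on unscaled totals. Ranges failed to overlap, whatever the fold, for 256 genes on the lower side (1.66%) and 100 on the higher side (0.65%). A fold of 1.5 with overlap allowed was reached by 465 and 425 genes, so the 2 directions were nearly equal in number before overlap was considered. Among called genes, 50 lower and 7 higher differed at least 2-fold. The genes called lower differed by a median of -0.83 on the log2 scale, with a range of -2.86 to -0.59, and those called higher by 0.80, with a range of 0.59 to 1.44. The median over all genes examined was 0.02.

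**Figure D1:**
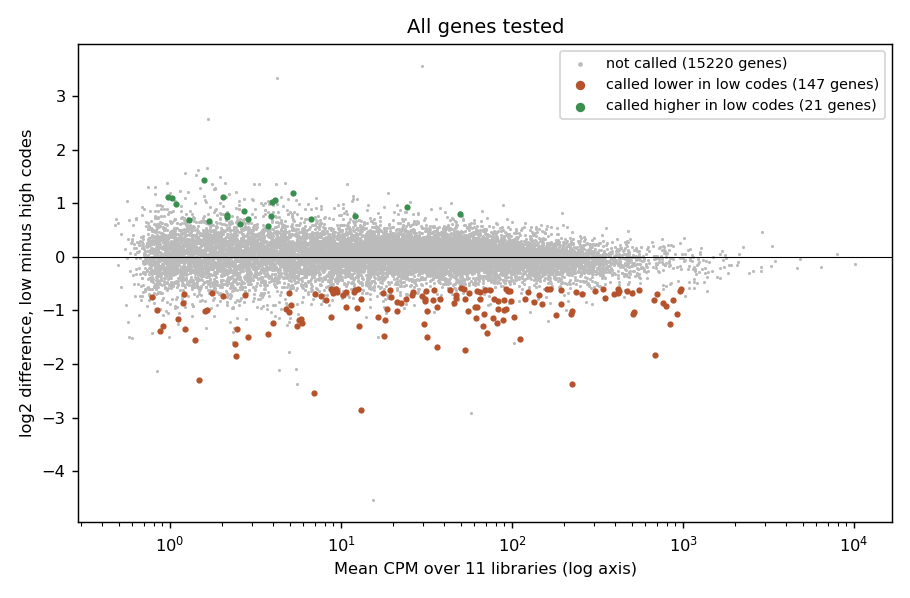
Each point is 1 of the 15388 genes examined, with mean CPM over 11 libraries on a log axis and the log2 difference of medians (low minus high codes) on the vertical axis. The 147 genes called lower spread over the whole range of levels, and the 21 called higher lie mostly at the low end.

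Genes called lower were well counted, while genes called higher were sparse. With genes in 5 equal classes of median CPM, the top class held 44 of the 147 lower calls (1.43% of its genes) and the bottom class held 14 of the 21 higher calls (0.45%). Only 4 of the 21 genes called higher had a median of 5 CPM or more, against 117 of the 147 called lower. Calls on the lower side also followed transcript length: of 5 classes by exonic length, 1.53% of the shortest were called lower, and 0.39% of the longest. Per-library length measures (the trend of level with exonic length) spanned -0.42 to 0.43 in the low codes and -0.63 to 0.43 in the high codes, and their part in this was not tested. Codes 1, 3, 6, 9 and 13 had positive measures and positive scores on the first principal component, and the other codes negative ones. Among chromosomes 1 to 19 and X, with Y and the mitochondrial genome left aside, 10 held the largest share of genes called lower (1.499%, 11 of 734) and X the smallest (0.19%, 1 of 525). Protein-coding genes made up 136 of the lower and 19 of the higher calls. Of the 13834 examined these were 0.983% and 0.137%, near the 0.955% and 0.136% of all genes.

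Promoters of 3 genes with large differences are shown, as the 250 bases before the RefSeq start (GRCm38.p6, printed 5′ to 3′ on the gene's strand). Gpr6 and Scn4b are the markers of largest gap with an entry in the RefSeq table, and Cartpt the peptide gene. Capitals mark the cyclic AMP response element TGACGTCA, searched on both strands.
Gpr6, chr10:41072291-41072540, minus strand: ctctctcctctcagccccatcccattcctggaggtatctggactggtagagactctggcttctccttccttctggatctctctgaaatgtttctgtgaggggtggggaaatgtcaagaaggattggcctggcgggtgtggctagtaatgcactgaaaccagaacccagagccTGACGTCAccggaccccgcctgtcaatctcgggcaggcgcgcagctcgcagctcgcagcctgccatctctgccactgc
Cartpt, chr13:99900684-99900933, minus strand: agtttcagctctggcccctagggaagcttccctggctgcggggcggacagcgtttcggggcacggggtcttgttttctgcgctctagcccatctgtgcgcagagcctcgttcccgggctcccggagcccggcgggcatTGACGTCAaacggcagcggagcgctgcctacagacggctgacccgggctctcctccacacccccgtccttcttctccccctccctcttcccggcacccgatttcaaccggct
Scn4b, chr9:45138374-45138623, plus strand: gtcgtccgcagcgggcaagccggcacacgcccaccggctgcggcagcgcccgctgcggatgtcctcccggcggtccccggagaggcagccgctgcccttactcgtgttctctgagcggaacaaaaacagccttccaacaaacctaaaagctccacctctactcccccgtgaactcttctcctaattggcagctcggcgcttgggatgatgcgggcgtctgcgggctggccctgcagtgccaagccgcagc
The element began 78 bases before the start of Gpr6, 112 before that of Cartpt and 95 before that of Dio2, and it was not in the Scn4b or Pdyn window. In windows of 300 bases (250 before to 50 after the start), it was found for 4 of 102 genes called lower (3.92%: Cartpt, Dio2, Gpr6 and Mcam), for 0 of 16 called higher and for 3.24% of 11404 genes examined. The AP-1 motif TGACTCA was in 5 of the 102 windows (4.90%) against 3.24% of all, and the EGR motif GCGTGGGCG in 0 against 1.21%. The shares of the element and of AP-1 among genes called lower thus lay near those of all genes.

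Of the 6 markers by which the division is known, 5 were called lower and Pde10a overlapped. From here on, values for the low codes are the lowest, median and highest library, and values for the high codes follow the order of codes 9, 10, 12, 13 and 14. Counts of calls in the lists below stand against 0.955% of all genes called lower and 0.136% called higher. Scn4b, a sodium channel beta subunit rich in striatal projection neurons, read 68.96, 75.1 and 95.8 CPM in the low codes and 339, 475, 326, 468 and 392 CPM in the high codes. Its difference of -2.38 (log2; 5.20-fold) was the largest of the set, and its lowest high-code library stood 3.39-fold above its highest low-code library. Penk, the precursor of enkephalin, read 301, 345 and 409.6 CPM against 807, 1233, 1321, 818 and 1235 CPM (-1.84), with codes 9 and 13 the lower pair of the high range. Adora2a, the adenosine receptor of indirect-pathway neurons, read 52.4, 58.4 and 71.2 CPM against 156, 209, 170.2, 142 and 182 CPM (-1.54). Gpr6, an orphan receptor of indirect-pathway neurons, was even within each range, at 14.7, 16.8 and 20.1 CPM against 44.2, 52.95, 48.4, 47.5 and 51.8 CPM (-1.497). Pdyn, the precursor of dynorphin, had the smallest difference of the 5, with 123, 135 and 141 CPM against 227, 302, 311, 233 and 247 CPM (-0.87).

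Pde10a encodes the main dual phosphodiesterase of projection neurons. It spanned 68.8, 133 and 195 CPM in the low codes and 486, 249, 160.0, 404 and 163 CPM in the high codes, a difference of -0.99 with overlap. Codes 1, 3 and 6 (195, 178 and 190 CPM) lay above codes 12 and 14 (160 and 163 CPM). Codes 1, 3, 6, 9 and 13 had positive length measures and the other codes negative ones, a grouping made after values were seen. Among the positive libraries Pde10a read 178 to 195 CPM in the low codes and 404 to 486 CPM in the high codes. Among the negative ones it read 68.8 to 88.4 CPM against 160.0 to 249 CPM. The part of the length measure in the overlap was not tested. The spread within ranges was wide for this gene, with a within-range SD of 0.71 on the log2 scale against 0.22 for Scn4b. In punched tissue, fewer projection neurons and less of each transcript per neuron cannot be told apart.

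**Figure D2:**
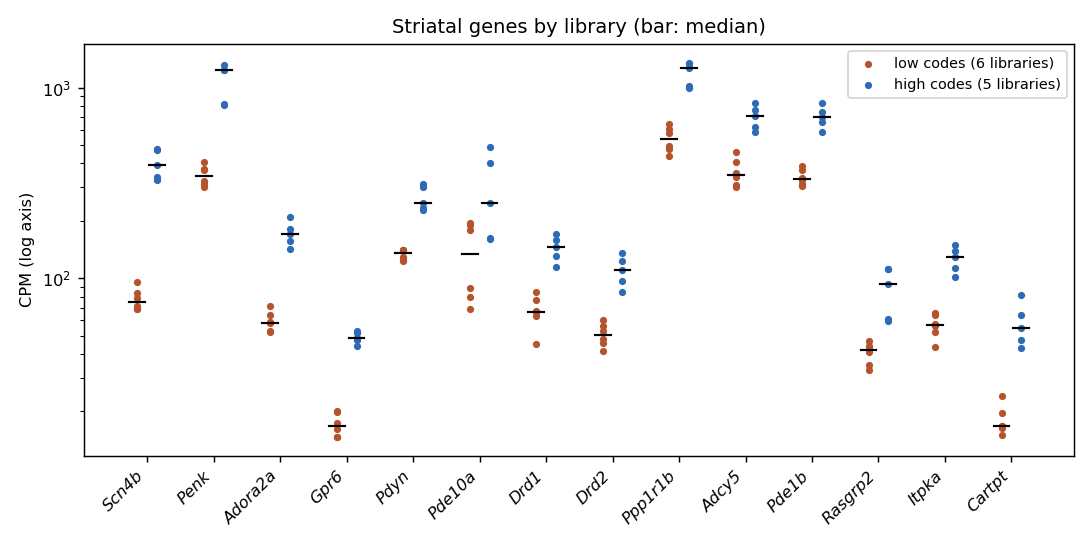
CPM of 14 striatal genes on a log axis, 1 point per library, low codes in red-brown and high codes in blue, with bars at the medians. The ranges separate for 13 of the genes and overlap for Pde10a, where low codes reach 195 CPM and high codes go down to 160 CPM. Those 13 are genes called lower, and a call requires ranges without overlap, so their separation follows from the choice. Striatal genes with overlap, such as Rgs9, Cnr1 and Tac1, are not shown.

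Of 24 genes listed as lower in striatum of Huntington disease models, 15 were called lower and 0 higher, with a median of -1.01 against 0.02 for all genes. All 24 lay below the median of all genes. Their summed level was 4463 to 5013 CPM in the low codes and 8608 to 10542 CPM in the high codes. All 6 markers by which the division was chosen are in this list, and Penk, Adora2a and Gpr6 are also in the indirect-pathway list and Pdyn in the direct-pathway list, so these counts partly restate that choice. Without the 6 markers, a setting added after the data were seen, 10 of 18 genes were called lower, the median was -0.90, and the sum was 3734 to 4212 CPM in the low codes and 6549 to 8021 CPM in the high codes. The 18 come from the same contrast, so they too are a description. The 9 not called were Rgs9, Pde10a, Ryr1, Kcnip2, Cnr1, Rgs4, Ptpn5, Actn2 and Ddit4l. Rgs9, a GTPase activator for dopamine receptor signalling, differed by -1.20 and overlapped only through code 12 (121 CPM, against 236 to 268 CPM in the other high codes and up to 124 CPM in the low codes). Ryr1, a calcium release channel, likewise read 8.91 CPM in code 12 and 23.7 to 32 CPM in the other high codes. Rgs4 did not overlap but differed by less than 1.5-fold (-0.54). Cnr1, the cannabinoid receptor CB1, differed by -0.82 with overlap.

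Indirect-pathway genes split into 2 sets. Of 8 measured, 5 were called lower (Penk, Adora2a, Gpr6, Upb1 and Drd2), with a list median of -1.19. Without the 3 markers among them, 2 of 5 were called and the median was -0.05. Drd2, the D2 receptor, read 41.7, 50.2 and 60.6 CPM in the low codes and 84.6, 136, 111, 97.1 and 123 CPM in the high codes (-1.14). Upb1, an enzyme of pyrimidine breakdown that lies on chromosome 10 as Adora2a does, read 1.22, 1.95 and 2.88 CPM against 8.43, 4.97, 4.96, 8.30 and 5.29 CPM (-1.24). The other 3 did not go the same way: the transcription factor Sp9 differed by 0.09, the kainate receptor Grik3 by -0.05 and Ttc12 by 0.50, each with overlap.

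In the direct pathway, 3 of 9 genes were called lower (Drd1, Pdyn and Slc35d3), with a median of -0.66. Without the marker Pdyn, 2 of 8 were called and the median was -0.33. Drd1, the D1 receptor, read 45.1, 66.6 and 84.5 CPM against 171, 158, 130.2, 146 and 114.8 CPM (-1.13), with code 5 lowest. Slc35d3, needed for D1 receptor traffic, read 19.4, 23.5 and 26.4 CPM against 35.3, 41.8, 43.7, 45.9 and 33.1 CPM (-0.82). Tac1, the precursor of substance P, differed by -0.66, but code 7 (283 CPM) reached the high range. Chrm4, the M4 muscarinic receptor, differed by -0.90 with overlap. The identity factors Isl1 (0.05) and Ebf1 (-0.00) were near the median of all genes.

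Of 18 genes shared by both kinds of projection neuron, 6 were called lower and all 18 lay below the median of all genes (list median -0.47). Ppp1r1b encodes DARPP-32, the phosphatase inhibitor that integrates dopamine signals. It read 438, 535 and 646 CPM in the low codes and 993, 1352, 1274, 1024 and 1328 CPM in the high codes (-1.26), with no low code within 1.5-fold of any high code. Rasd2, a striatal small GTPase also called Rhes, read 105, 124 and 150.4 CPM against 194, 263, 234, 270.0 and 269 CPM (-1.08). Arpp21, a calmodulin regulator phosphorylated by protein kinase A, read 417, 550.5 and 642 CPM against 974, 1151, 972, 1002 and 1021 CPM (-0.86). Gng7 (-0.69), the gamma subunit paired with the olfactory G protein, was also called. Transcription factors and the GABA synthesis enzymes differed less. Foxp1 differed by -0.33 without overlap, while Bcl11b (-0.14), Foxp2 (-0.26), Meis2 (-0.27), Gad1 (-0.27) and Gad2 (-0.47) overlapped.

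Cartpt stood out among 11 ventral striatum genes, of which 2 were called lower (median -0.49). Cartpt, which encodes the CART peptide of accumbens neurons, read 15.1, 16.8 and 24.1 CPM against 43.1, 55.1, 63.9, 47.2 and 81.4 CPM (-1.69, 3.22-fold). Nnat, an imprinted gene for a small membrane protein, read 313, 354 and 401 CPM against 526.4, 549, 694, 522 and 772 CPM (-0.63). Wfs1 (-0.88) and Crym (-0.72) overlapped, and Zdbf2 differed by 0.63 in the other direction.

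Cyclic AMP signalling was represented by 4 lower calls among 26 cyclase and kinase genes (15.4%, against 0.955% of all genes), while the list median was -0.05. Adcy5, the main striatal adenylyl cyclase, read 300.4, 348 and 457 CPM in the low codes and 764, 836, 586, 622 and 713 CPM in the high codes (-1.04). Arpp19, a phosphatase 2A inhibitor, read 121, 147 and 163 CPM against 261, 305, 362, 343 and 294 CPM (-1.06). Ppp1r1a, inhibitor 1 of protein phosphatase 1, read 38.7, 57.7 and 75.9 CPM against 88.1, 99.7, 133, 82.1 and 120.4 CPM (-0.79). Among 18 phosphodiesterases, Pde1b and Pde1c, both stimulated by calmodulin, were called lower (median -0.14). Pde1b read 306, 333 and 390.0 CPM against 663, 826, 587, 702 and 744 CPM (-1.07). Pde1c read 10.8, 15 and 21.7 CPM against 32.1, 31.1, 23.7, 30.6 and 21.9 CPM (-1.01), so that code 1 almost met code 14. Pde1b and Ppp1r1a are neighbours on chromosome 15 with 226 bases between their annotated ends, on opposite strands.

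RGS proteins speed the shut-off of G proteins. Their list median was -0.38 with 18 of 19 below that of all genes, yet only Rgs14 was called, at 51.3, 59.4 and 69.6 CPM against 114, 121, 117, 78.01 and 117 CPM (-0.97); code 13 (78.0 CPM) lay apart from the other high codes. Ras and Rap regulators held 3 calls of 24. Rasgrp2, an exchange factor for Rap1 driven by calcium, read 32.9, 41.8 and 46.7 CPM against 59.6, 92.7, 61.4, 112 and 111 CPM (-1.14). Rin1, a Ras effector, read 51.97, 62.8 and 65.4 CPM against 116, 131, 70.2, 110.0 and 112 CPM (-0.83), with code 12 (70.2 CPM) nearest the low range. None of 26 MAP kinase and phosphatase genes was called (median -0.10), which lies near the share of all genes called lower (0.955%). Ranges of 3 of the 26 did not overlap on the lower side, at less than 1.5-fold, against 1.66% of all genes. Below the median of all genes lay 21 of the 26.

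Calcium genes held 3 lower calls of 37 (8.11%, against 0.955% of all genes), with a median of -0.22. Itpka, the kinase that converts inositol trisphosphate in dendritic spines, read 43.7, 56.9 and 65.4 CPM against 113, 139, 149, 102 and 129 CPM (-1.17). The calcium sensor Hpca read 572, 813 and 891 CPM against 959, 1270.4, 1382, 1008 and 1382 CPM (-0.64). Camk4, a nuclear calmodulin kinase, read 113, 163 and 185 CPM against 303, 214, 248, 253 and 195 CPM (-0.61). For Hpca and Camk4 the ranges were separated by 1.08-fold and 1.05-fold alone.

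Of 37 neuropeptide and receptor genes, 6 were called lower (16.2%) and 0 higher, against 0.955% and 0.136% of all genes (median -0.48). Beside Penk, Cartpt and Pdyn these were Trh, Vip and Mchr1. Penk and Pdyn are markers by which the division was chosen, so this count partly restates that choice. Trh, the thyrotropin-releasing hormone precursor, was sparse at 1.56, 2.24 and 2.72 CPM against 3.55, 6.93, 7.80, 2.90 and 7.04 CPM (-1.44), and is also a marker of septal and diencephalic tissue. Vip, the interneuron peptide, read 5.33, 6.24 and 9.72 CPM against 21.6, 15.8, 29.1, 15.8 and 14.1 CPM (-1.28). Mchr1, the receptor of melanin-concentrating hormone, read 28.7, 34.7 and 43.1 CPM against 48.1, 56.6, 45.6, 52.9 and 57.5 CPM (-0.61). Oprd1 (-0.84), Sst (-0.83) and Npy (-0.63) overlapped, and the mu opioid receptor Oprm1 differed by 0.18.

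Receptors for monoamines, adenosine, acetylcholine and cannabinoids held 6 lower calls of 32 (18.75%, against 0.955% of all genes), with a median of -0.29. Among the 6 is Adora2a, a marker by which the division was chosen. Hrh3, the H3 histamine receptor, read 80.1, 107 and 121 CPM in the low codes and 189, 212, 197, 188 and 240.4 CPM in the high codes (-0.88). Adra2c, the alpha-2C adrenergic receptor, read 27.1, 35.3 and 45.9 CPM against 58.5, 71.9, 75.5, 50.6 and 54.9 CPM (-0.72). The serotonin receptor Htr1a read 13.6, 14.9 and 19.1 CPM against 25.2, 21.6, 26.6, 23.2 and 21.97 CPM (-0.63). Of 27 orphan receptors, 3 were called lower (11.1%), among them Gpr83 and Gpr6, the latter a marker by which the division was chosen. Gpr83 read 40.1, 50.2 and 58.5 CPM against 113, 142, 120.0, 106 and 119 CPM (-1.23).

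Ion channel lists held 1 call each, or none. Over all genes 0.955% were called lower, and the 1 call among 74 potassium channel genes (1.35%) lies near that share. Of 9 sodium channel subunits Scn4b, a marker by which the division was chosen, was the only call. The pore-forming Scn1a (0.63) and Scn9a (0.99) differed in the other direction with overlap. Of 74 potassium channel genes Kcnh3 alone was called, at 63.01, 70.6 and 96.7 CPM against 143, 122, 126, 126 and 123 CPM (-0.83). Its relative Kcnh4 had a larger difference (-1.499) but code 12 (9.66 CPM) fell inside the low range, apart from the other high codes (22.3 to 33.5 CPM). Gabrd, the delta subunit of extrasynaptic GABA-A receptors, read 32.5, 41.4 and 50.2 CPM against 76.5, 106, 102, 88.2 and 112 CPM (-1.29) and was the only call of 14 subunits. The median of those 14 (-0.03) changed sign against that of all genes with the scaling and with the libraries included.

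At the synapse, 0 of 39 glutamate receptor and scaffold genes were called (median -0.10), and none of them had ranges that failed to overlap. Over all genes, 0.955% were called lower and 1.66% had ranges without overlap on the lower side. Counts of 0 in 39 lie near those shares. Synaptic vesicle genes held 2 calls of 41, the calcium sensors Syt2 (-0.94) and Syt12 (-0.63). Syt2 read 19.2, 25.3 and 34.4 CPM against 56.7, 50.6, 49.1, 48.5 and 42.7 CPM. Axon guidance genes held 2 of 45, the semaphorin receptor Plxnd1 (-0.86) and the netrin relative Ntng2 (-0.80). Plxnd1 read 23.5, 35.1 and 38.5 CPM against 52.05, 74.8, 48.1, 63.8 and 64.4 CPM.

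Outside the lists, the differences of largest size at 5 CPM or more included Lrrc10b, Ier5l, Syndig1l and Car12. Lrrc10b, a leucine-rich repeat gene, read 22.2, 26.7 and 31.9 CPM against 57.3, 98.9, 80.6, 98.6 and 90.6 CPM (-1.75). Ier5l read 7.44, 9.57 and 10.9 CPM against 24, 29.6, 27.6, 27.02 and 30.7 CPM (-1.48). Syndig1l, a relative of the AMPA receptor partner SynDIG1, read 31.04, 39.7 and 54.8 CPM against 102, 125, 116, 91.8 and 107 CPM (-1.42). Car12, a carbonic anhydrase, read 14.1, 19.2 and 25.1 CPM against 39.1, 52.7, 29.04, 46.3 and 50.1 CPM (-1.25). Under 5 CPM the largest was Cd4, named after its values were seen, which encodes the T helper cell coreceptor. Cd4 read 1.70, 3.36 and 4.83 CPM against 18.6, 28.8, 21.5, 27.5 and 27.9 CPM (-2.86, 7.25-fold), the widest gap of any gene (3.59-fold between the ranges).

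Retinoid genes were lower in the low codes as a list. All 15 measured lay below the median of all genes (median -0.33) and 2 were called lower (13.3%, against 0.955% of all genes). Dhrs3, which reduces retinaldehyde and is itself induced by retinoic acid, read 9.69, 11.3 and 12.7 CPM in the low codes and 16.5, 25.1, 25.9, 18.9 and 28.4 CPM in the high codes (-1.12). Rxrg read 35.3, 43.8 and 49.6 CPM against 60.02, 76.3, 70.5, 67.8 and 79.2 CPM (-0.68). Rarb itself read 49.8, 65.2 and 80.4 CPM against 93.5, 101.2, 72.9, 90.1 and 67.9 CPM (-0.47), with codes 12 and 14 (72.9 and 67.9 CPM) inside the low range, so its level did not divide the libraries by code. Without codes 1 and 3 the list median relative to that of all genes was -0.21, against -0.35 with all libraries. Dhrs3 was then the single call, as it also was on unscaled totals, while without codes 5 and 12 there were 3. Rara (-0.13), Rarg (-0.02), Rxra (-0.09) and the degrading enzyme Cyp26b1 (-0.01) differed little. Among 14 thyroid hormone genes Dio2, the enzyme that activates thyroxine, was the call, at 20.6, 23.6 and 26.95 CPM against 44.7, 31.6, 39.4, 40.4 and 27.8 CPM (-0.73).

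Huntingtin (Htt) read 115.4, 152 and 166 CPM against 183, 127, 100.3, 142 and 126 CPM (0.26) with overlap. The other 22 genes of its partners and of neurotrophin signalling held 0 calls. Of 28 DNA repair genes, several of which modify CAG repeat expansion, 0 were called and the median was 0.18. Counts of 0 in lists of this size lie near the shares of all genes called lower (0.955%) and higher (0.136%).

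Activity-induced genes had a median of -0.45, with 22 of 24 below the median of all genes. Of the 24, 2 were called lower (8.33%, against 0.955% of all genes). Egr2 was sparse, at 0.0345, 0.399 and 0.803 CPM against 1.47, 0.934, 1.42, 3.90 and 2.08 CPM (-1.15). Every low code was under 1 CPM, so Egr2 passed the filter through the high codes alone. Its call was lost with a pseudocount of 2. Jun read 34.1, 42.5 and 48.4 CPM against 74.1, 48.8, 66.7, 64.1 and 52.4 CPM (-0.59), a gap of 1.01-fold. Arc differed by -0.71 and Npas4 by -0.58 with overlap, while Fos differed by 0.05. Among 18 clock genes Dbp, an output factor, was called at 111, 131 and 153 CPM against 170.0, 222, 199, 161 and 227 CPM (-0.61). The core factors Arntl (-0.03) and Per2 (-0.08) were close to 0, and times of dissection are not given in the labels.

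**Figure D3:**
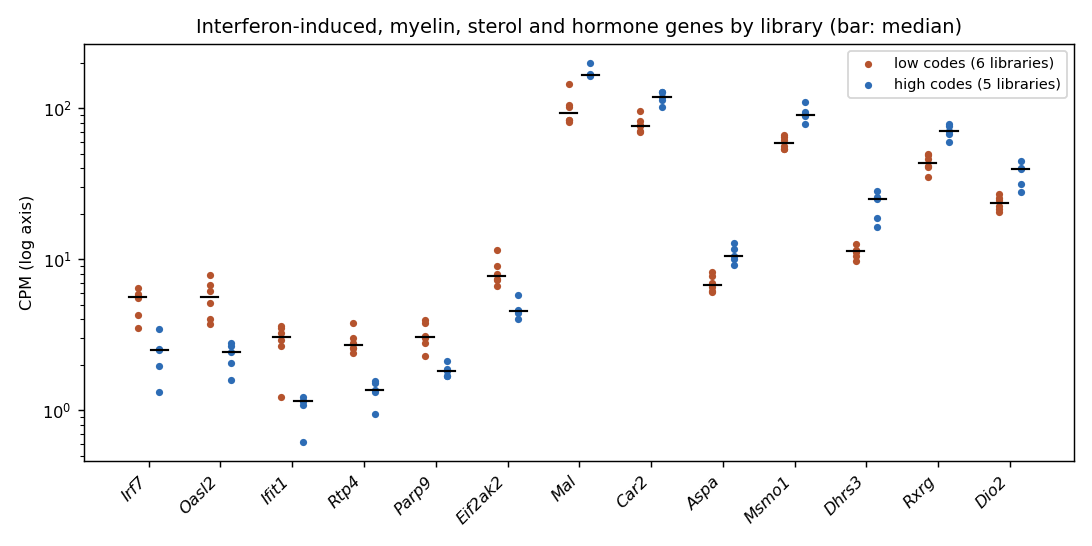
CPM by library on a log axis for interferon-induced, myelin, sterol, retinoid and thyroid genes, with low codes in red-brown, high codes in blue and bars at medians. The 6 interferon-induced genes at the left lie higher in the low codes and the other 7 lower. All genes shown were called, so their separation and direction follow from the choice. List members that were not called are left out, as is Ido1, interferon-induced but called lower.

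Interferon-induced and antigen presentation genes were the list with most higher calls. Of 27 measured, 3 were called higher (11.1%, against 0.136% of all genes) and 0 lower. The median was 0.44 and 24 lay above the median of all genes. Irf7, the regulator of the type I interferon response, read 3.50, 5.60 and 6.50 CPM in the low codes and 1.33, 2.56, 3.46, 1.96 and 2.50 CPM in the high codes (1.02). Oasl2, a relative of the RNA-sensing oligoadenylate synthetases, read 3.72, 5.66 and 7.91 CPM against 2.05, 2.44, 1.60, 2.77 and 2.68 CPM (1.06). Ifit1, which binds foreign RNA, read 1.22, 3.07 and 3.63 CPM against 1.21, 1.15, 1.15, 1.08 and 0.614 CPM (1.12). These levels were low and the gaps narrow, 1.01-fold for Irf7 and for Ifit1 and 1.29-fold for Oasl2. The count of higher calls in the list moved with the settings, to 5 on unscaled totals, 6 without codes 1 and 3, 4 without codes 5 and 12, and 2 with DESeq2 size factors.

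Called higher outside that list were 3 further interferon-induced genes, grouped here after their values were seen. They were picked from the higher calls alone. Ido1, also induced by interferon and outside the list, was called lower (-1.17). The RNA-activated kinase Eif2ak2 read 6.66, 7.71 and 11.6 CPM against 5.78, 4.58, 4.52, 4.04 and 4.41 CPM (0.71). Rtp4 read 2.40, 2.69 and 3.76 CPM against 1.36, 1.33, 1.51, 1.55 and 0.944 CPM (0.78). Parp9 read 2.28, 3.05 and 3.98 CPM against 1.88, 1.81, 1.68, 2.13 and 1.69 CPM (0.62). Summed over 28 genes of the list, the level was 279.6 to 407 CPM in the low codes and 241 to 315 CPM in the high codes, with codes 1 and 3 (279.6 and 303 CPM) inside the high range. Microglia genes had a median of -0.24 and 0 calls, and their summed level overlapped at 565 to 807 CPM in the low codes and 605 to 939 CPM in the high codes. Relative to the median of all genes, the microglia median was -0.26 with all libraries and -0.05 without codes 1 and 3.

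The remaining higher calls fell in no list, apart from Sostdc1. Ece2, an endothelin-converting enzyme, read 49.04, 61.9 and 64.7 CPM against 35.3, 38.4, 32.6, 33.8 and 44.97 CPM (0.80). Fkbp14, a prolyl isomerase of the endoplasmic reticulum, read 12.5, 14.7 and 17.4 CPM against 8.95, 7.38, 7.89, 9.82 and 8.43 CPM (0.77). AW551984 read 19.1, 29.3 and 61.4 CPM against 14.7, 17.99, 8.91, 8.43 and 18.9 CPM (0.93), with code 1 highest at 61.4 CPM. Sostdc1, the single call among choroid plexus genes, read 0.758, 1.36 and 2.06 CPM against 0.433, 0.332, 0.355, 0.277 and 0.746 CPM (1.11). It was under 1 CPM in every high code and so passed the filter through the low codes alone. A pseudocount of 2 removed its call.

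Sterol genes differed together by less than 2-fold. Of 23 cholesterol synthesis and uptake genes 20 lay below the median of all genes, the median was -0.39 and 2 were called. A single one was called on unscaled totals, without codes 1 and 3, or without codes 5 and 12. Msmo1, a sterol oxidase, read 53.7, 58.8 and 66.7 CPM against 78.9, 90.3, 111, 94.9 and 88.9 CPM (-0.62). Its call was lost in each of the settings just named. The summed level did not overlap, at 1063 to 1272 CPM in the low codes and 1397 to 1593 CPM in the high codes.

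Energy and protein homeostasis lists held no call, where 0.955% of all genes were called lower and 0.136% higher. Medians were -0.11 for 70 nuclear oxidative phosphorylation genes, -0.01 for 21 citric acid cycle genes, -0.13 for 19 glycolysis genes, -0.03 for 37 proteasome subunits and 0.03 for 28 chaperones. These small medians depended on codes 1 and 3. Without them, and relative to the median of all genes, they were 0.05 for oxidative phosphorylation (-0.13 with all libraries), 0.05 for the citric acid cycle (-0.03), 0.07 for proteasome subunits (-0.05), 0.05 for chaperones (0.01) and 0.00 below that median for glycolysis (0.15 below with all libraries). Cytosolic ribosomal proteins had 79 of 80 below the median of all genes (median -0.21), with summed levels that overlapped. Without codes 1 and 3 the ribosomal median was 0.04 below that of all genes. Splicing factors (median 0.21, 44 genes) and protocadherins (median 0.28, 62 genes) were higher as lists with 0 calls. Without codes 1 and 3 they stood 0.05 above and 0.01 below the median of all genes.

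Further lists held few calls or none. With 0.955% of all genes called lower and 0.136% higher, 0 or 1 call says little about a list. Dorsolateral striatum genes had Rxrg as the single call of 6 (median -0.38), and imprinted genes had Nnat as the single call of 28 (median 0.05). With 0 calls, medians were -0.10 for 37 Wnt and Notch genes, -0.21 for 32 TGF-beta and BMP genes, -0.08 for 22 calcium channel subunits and -0.01 for 15 glucocorticoid genes. They were 0.05 for 24 unfolded protein response genes, -0.03 for 32 autophagy and lysosome genes, -0.10 for 13 fatty acid synthesis genes, -0.06 for 77 mitochondrial ribosomal proteins and -0.11 for 15 genes of the mitochondrial genome. Nuclear lists gave 0.14 for 50 chromatin modifiers, -0.17 for 13 histone genes, -0.14 for 19 developmental transcription factors and 0.08 for 20 long noncoding RNAs. Rarb and its chromosome neighbours had a median of 0.04 over 10 genes, oligodendrocyte precursor genes -0.25 over 20, fibroblast and collagen genes -0.12 over 27, and red blood cell genes -0.29 over 6. Septal and diencephalic genes had Trh as the single call of 10 (median 0.03). Without codes 1 and 3 the medians of autophagy genes and mitochondrial ribosomal proteins turned to 0.09 and 0.07 relative to that of all genes, and the septal median to -0.17. Without codes 5 and 12 the mitochondrial genome stood at 0.00, and lower calls numbered 4 in the axon guidance list and 3 each among potassium channel, activity-induced and cholinergic neuron genes.

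Markers of other cell types in or next to the accumbens were examined in the same way. Mature oligodendrocyte genes held 4 lower calls of 28 (14.3%, against 0.955% of all genes), with 26 below the median of all genes (median -0.41). The number called was 10 without codes 5 and 12, and 2 both on unscaled totals and without codes 1 and 3. Mal, a proteolipid of compact myelin, read 81.2, 93.1 and 145 CPM in the low codes and 166, 165, 170.2, 167 and 200.2 CPM in the high codes (-0.84). Car2, a carbonic anhydrase, differed by -0.63, and Aspa, which breaks down N-acetylaspartate, by -0.61. The summed level of the 28 overlapped, at 2471 to 4276 CPM in the low codes and 3999 to 5817 CPM in the high codes, code 5 being the highest of the low range and code 10 the lowest of the high range. The part of this in the striatal differences was not tested.

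Cortical glutamatergic neuron genes, summed over 18, did not overlap, at 2027 to 3027 CPM in the low codes and 3158 to 5248 CPM in the high codes, with code 12 highest. Camk2n1, an inhibitor of calmodulin kinase II, was the single call (-0.81), at 477, 605 and 785 CPM against 1014, 1059, 1642, 985 and 1181 CPM. Without Camk2n1, a setting added after the data were seen, the sum of the other 17 overlapped, at 1551 to 2396 CPM in the low codes and 2099 to 3606 CPM in the high codes. The vesicular glutamate transporter Slc17a7, which defines those neurons, overlapped with a difference of -0.22, and the list median was -0.16. Astrocyte genes had a median of -0.25 with 0 of 25 called, and endothelial and pericyte genes -0.03 with 0 of 25. Cholinergic neuron genes had a median of -0.53, and the vesicular acetylcholine transporter Slc18a3 was called at 2.53, 3.05 and 4.31 CPM against 6.70, 9.31, 6.12, 5.39 and 7.51 CPM (-1.02). GABAergic interneuron genes had a median of -0.50, with Vip the single call of 13.

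Genes of the ventricular wall had medians above that of all genes, which depended on 2 libraries. The medians were 0.35 for 16 neuroblast genes, 0.24 for 30 cell division genes and 0.31 for 26 motile cilia genes, each with 0 calls. Without codes 1 and 3 they stood at 0.06, -0.18 and -0.10 relative to the median of all genes. Without those codes, 153 genes were called lower and 41 higher, and 119 of the 147 lower and 19 of the 21 higher calls remained.

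**Figure D4:**
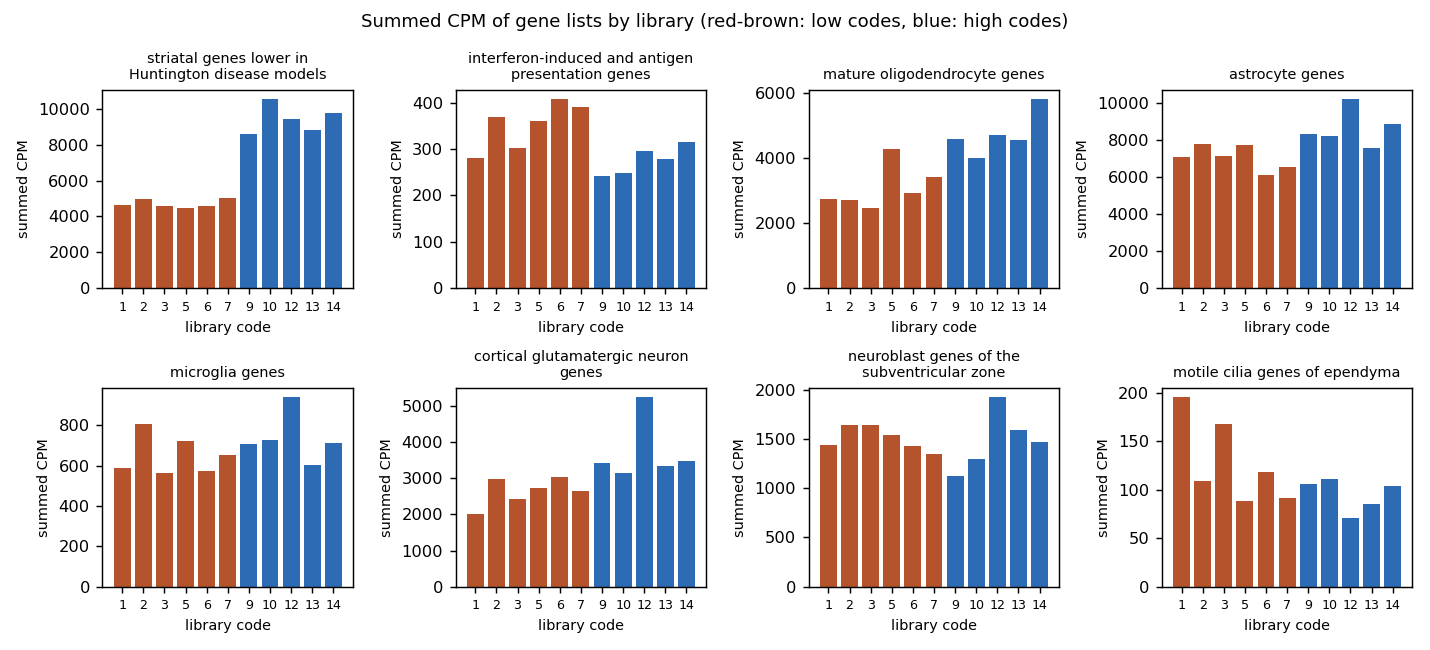
Summed CPM of 8 gene lists in each library, low codes in red-brown and high codes in blue, with axes from 0. The list of striatal genes lower in Huntington disease models separates the ranges (at most 5013 CPM in the low codes, at least 8608 CPM in the high codes), while motile cilia genes are set apart by codes 1 and 3.

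**Figure D5:**
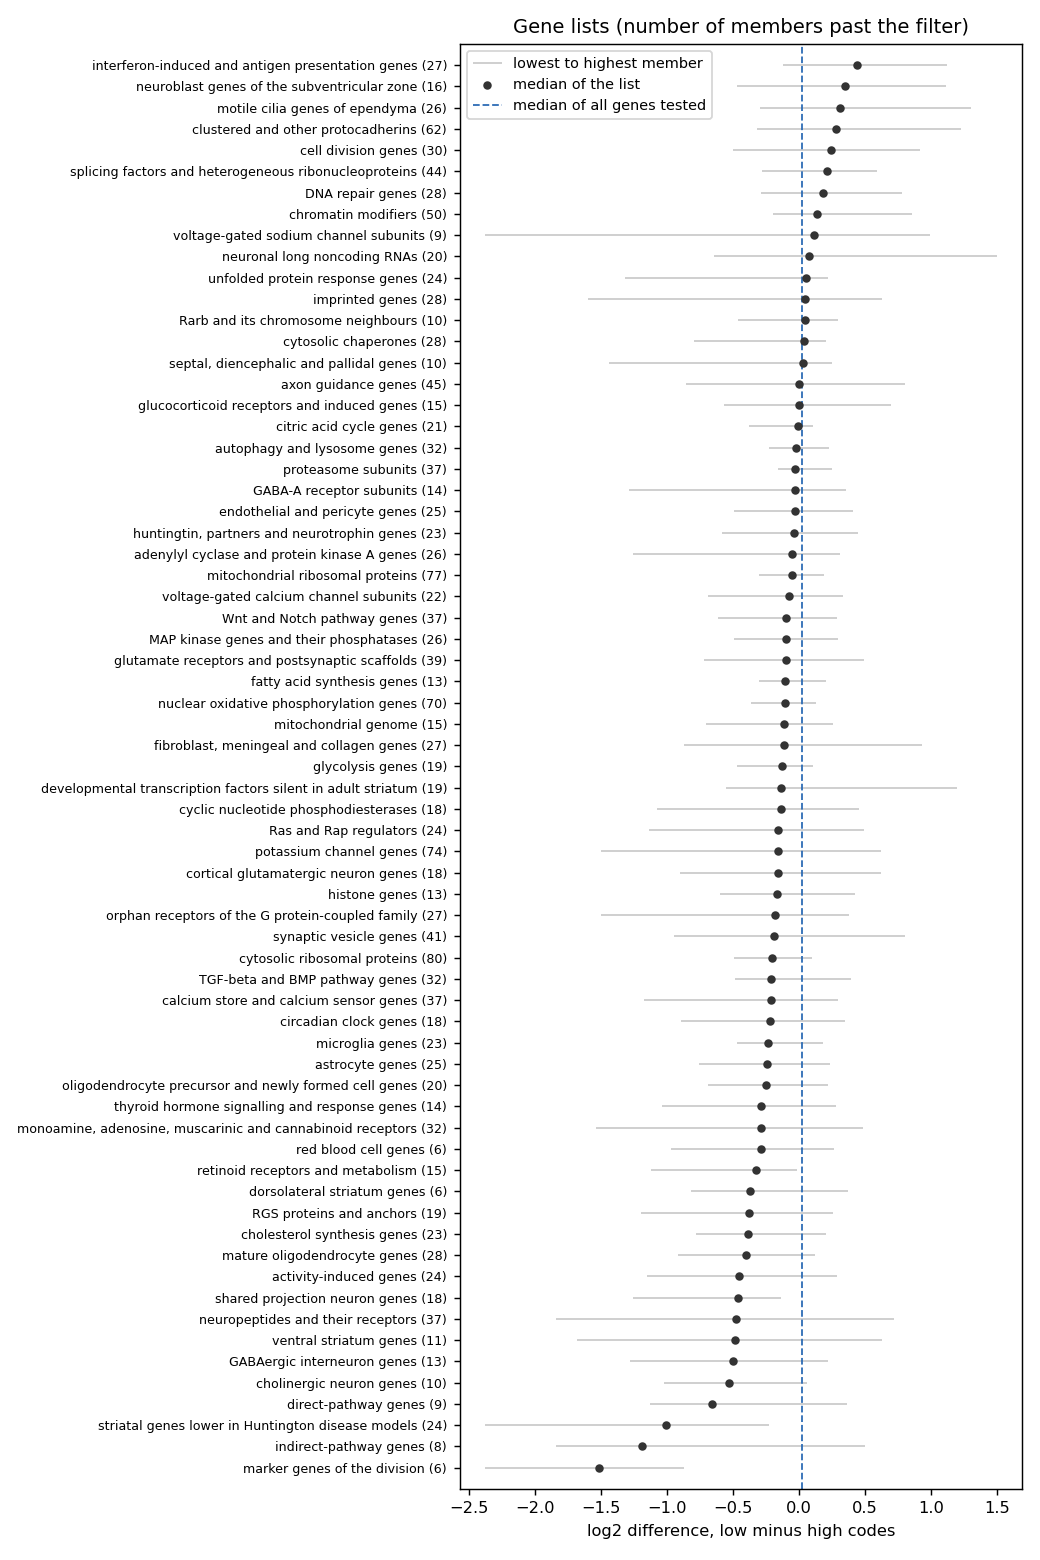
Median log2 difference (low minus high codes) of each list with 6 or more members past the filter, with a line from its lowest to its highest member and a dashed line at the median of all genes (0.02). Striatal neuron lists lie at the lower end and interferon-induced genes at the upper end.

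The library nearest the other range varied from gene to gene. Among the 147 genes called lower, the low-code library nearest the high range was code 2 for 53 genes, codes 5 and 7 for 30 each, codes 3 and 6 for 12 each and code 1 for 10. On the other side code 9 was nearest for 52, code 13 for 41, code 12 for 24, code 10 for 16 and code 14 for 14. Leaving out any 1 library left 142 to 187 genes called lower and 21 to 46 called higher. Leaving out code 13 raised the higher calls to 46, code 9 to 39, and codes 5 and 14 to 33 each, code 7 to 32, all over 1.5 times the 21 with all libraries. Exons of 53 called genes overlap those of another annotated gene, 47 of them on the opposite strand, among them Penk, Ppp1r1b, Hpca, Irf7, Parp9 and Jun. Reads from an opposite-strand pair may not have been told apart, since the strand setting of the counting is not given in the sources used here. For 7 called genes, among them Ece2 and Rtp4, an overlap is on the same strand, where strand cannot tell reads apart. The share of all genes with such overlaps was not computed.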

How the data were processed

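Poly(A) RNA of the punches was made into stranded libraries from 200 ng of total RNA with 12 PCR cycles, per the labels' protocols. The authors deposited raw counts per gene for 11 libraries; per the submitters' processing notes HTSeq 0.6.1, Bowtie2 2.1.0, TopHat2 2.0.14 and bcl2fastq 2.17.1.14 were among the tools, with build mm10. For the annotation release and the strand setting, nothing is given in the sources used here. Of 52550 identifiers, 52403 matched GENCODE M21 (GRCm38), and the other 147 took 0.0112% to 0.0214% of counts. Sizes were scaled by TMM in edgeR 4.0.16 (factors 0.908 to 1.056; R 4.3.3), and genes with 1 CPM in 3 libraries were kept. The difference is that of group medians of log2(CPM + 0.5), low minus high codes. The members and all 69 gene lists were chosen with earlier results of these data known, and no test of the difference between the ranges and no p-value was computed. Dixon's ratio was used only to mark single libraries within a range.

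Named genes were the 6 markers, Rarb and Htt, the 12 protein-coding genes of largest difference in each direction at a median of 5 CPM or more, up to 3 of other biotypes, up to 4 called members of each list (or its most abundant member), and Xist and Ddx3y; others are named as list members or after their values were seen. Alternatives were unscaled totals, DESeq2 1.42.0 size factors, no filter, a pseudocount of 2, means, a 2-fold limit, overlap allowed, genes of middle exonic length (without 10% at each end), and libraries left out. Count totals of 24840981 to 48825783 put 3 counts at 0.0619 to 0.133 CPM, the limit from counting error alone. No 2 libraries agreed within sampling noise (chi-square per gene of 16.0 for the closest pair). Promoter sequences are RefSeq's (GRCm38.p6). Values of a few genes that belong to the lists are not reported here, though they count in the lists' totals.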

Additional observations from a re-analysis of the deposited data

Results flagged for a closer look

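In 200 groups (100 named genes in each code range) the highest or lowest library was compared with its nearest neighbour by Dixon's ratio, and 11 groups passed the 95% limit. Chance passes about 1 group in 20. In the high codes, Arpp21 in code 10 (1151 CPM, next 1021 CPM), Kcnh3 in code 9 (143 CPM, next 126 CPM) and Mal in code 14 (200.2 CPM, next 170.2 CPM) lay above the rest, farther from the low codes. Rgs14 in code 13 (78.0 CPM, next 114 CPM) lay below the rest, nearer the low codes. Ifit1 in code 14 (0.614 CPM, next 1.08 CPM) lay below the rest of the high codes. Rin1 in code 6 (52.0 CPM, next 60.7 CPM) lay below the other low codes. Code 2 was high among the low codes for the postsynaptic scaffold gene Dlg4 (964 CPM, next 722 CPM). Code 12, the library with the fewest counts and the highest mitochondrial share, was high among the high codes for Mdh1, malate dehydrogenase (1096 CPM, next 834 CPM). The cilia gene Drc1 was low in code 7 (14.8 CPM, next 16.9 CPM) and in code 12 (11.4 CPM, next 18.9 CPM). Xist, transcribed from the inactive X chromosome, read 10.3 CPM in code 13 and at most 0.271 CPM in the other high codes, while Y-linked Ddx3y was present in code 13 at 50.6 CPM.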

How the results depend on the processing

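Against 147 genes called lower and 21 higher, unscaled totals gave 104 and 33, a pseudocount of 2 gave 123 and 8, and a 2-fold limit gave 50 and 7. Allowing overlap gave 465 and 425. Without codes 1 and 3 there were 153 and 41, and without codes 5 and 12, 228 and 29. DESeq2 size factors (151 and 20), no filter (153 and 28), means (150 and 29) and genes of middle exonic length (122 and 17) stayed within 1.5 times. Leaving out 1 library gave 142 to 187 lower and 21 to 46 higher. The cause of these shifts was not tested, except that a larger fold limit or an allowed overlap changes the rule itself. No difference of the 104 named genes changed sign under any of these settings where the gene had been called. Calls of Jun, Dbp, Camk4, Aspa, Hpca, Pde1c, Msmo1, Syt12, Dio2 and AW551984, among others, were each lost in several settings. Unscaled totals moved the median of all genes from 0.02 to 0.08. No paired analysis was made, because each library came from a mouse of its own number and the sources used here give no pairing between the ranges. Of the 21 genes called higher, 17 had a median under 5 CPM.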

Other observations

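Of the 168 called genes, 110 were in none of the 69 lists (93 lower, 17 higher), and the genes named here were picked from them after their values were seen. Ddn (dendrin) differed by -1.07, the actin regulators Inf2 by -1.01 and Phactr1 by -0.80, and the exchange factor Ngef by -0.68, all lower in the low codes. Tesc, a calcium-binding protein, differed by -1.07, the AMPA receptor auxiliary subunit Gsg1l by -0.98, and Igfbp4, a binding protein of insulin-like growth factors, by -1.02. Others at low levels were Ido1, an interferon-induced enzyme of tryptophan breakdown (-1.17), Jsrp1, a protein of the calcium release complex of muscle (-1.23), and Wnk4, a kinase that regulates ion transport (-1.49).

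In 4 cases 2 called genes were direct neighbours among the genes examined, and both were lower each time. Of all calls 87.5% were lower, and the number of such pairs expected from the share of called genes was not computed. Ptprv (-2.53) and Ptpn7 (-2.30), both genes of the protein tyrosine phosphatase family, lie on opposite strands of chromosome 1 with 105 bases between them. Pde1b and Ppp1r1a on chromosome 15 are 226 bases apart. Scn4b (-2.38) and the sparse BC049352 (-1.30) on chromosome 9 are 27854 bases apart, and Krt10 (-0.65) and Krt12 (-0.81) on chromosome 11 are 26301 bases apart. Ptpn7 and BC049352 were under 1 CPM in every low code, so they passed the filter through the high codes alone.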
